A study of Mus musculus with 30 samples.

Results

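The genes described here are the cytosolic ribosomal protein genes of the mouse, chosen by their symbols (Rpl and Rps with a number and an optional a, x or l, Rplp0 to Rplp2, and Rpsa). The rule found 84 of the 48795 genes in the count tables, 52 with large-subunit and 32 with small-subunit symbols. GENCODE annotates 82 as protein-coding and 2, Rps4l and Rpl6l, as pseudogenes. The rule misses a few ribosomal protein genes, such as Fau, Rps3a1, Rpl36al and Rps27rt, which are given separately. RNA had been sequenced from primary endothelial cells of the brain of wild-type, untreated mice at 2, 6, 12, 18 and 24 months of age. Each age had 6 libraries, 3 male (here numbered 1 to 3 in accession order) and 3 female (4 to 6), and the study asked how expression changes with age after allowing for sex. The libraries are called biological replicates, and the sources used here give neither the method of cell isolation nor any pooling of mice.

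Ribosomal proteins clothe the ribosomal RNA of both subunits of the ribosome and are needed for its assembly. Most of their mRNAs begin with a run of pyrimidines, the TOP motif, through which mTORC1 controls their translation. Mammalian genomes also hold many processed pseudogenes of these genes, which are copies of the mRNA without introns. A short read from a stretch that gene and copy share has no single place in the genome, and the deposited counts keep such reads apart from those of genes.

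Each library held 24140980 to 50464366 counts in genes. Levels are given as CPM, the counts of a gene relative to the library size after TMM scaling. A count of 0 allows up to 3 counts for counting error only, which is 0.0594 to 0.124 CPM before TMM scaling, depending on the library. The cells carried endothelial markers, as the summed level of 10 endothelial markers was 16390 to 22469 CPM in every library. Summed markers of other cells were lower but present, with 165 to 2344 CPM for 5 erythroid genes, 164.5 to 7030 CPM for 7 choroid plexus and ependyma genes, 133 to 1956 CPM for 7 oligodendrocyte genes, 174 to 1319 CPM for 8 microglial genes and 208 to 1297 CPM for 8 astrocyte genes. Sums were 386 to 1227.5 CPM for 10 pericyte genes and 95.8 to 690 CPM for 7 smooth muscle genes. Those of 7 fibroblast genes were 164 to 690 CPM and those of 8 neuronal genes 30.3 to 160 CPM. Border macrophage, T and NK cell, B cell and neutrophil markers summed to at most 28.6 CPM. The 3 female libraries of 6 months and male replicate 1 of 12 months had the lowest shares of counts in longer genes. Genes with exons longer than the median held 45.8, 44.2 and 47.6% of the counts in those females and 46.6% in that male library, against 51.2 to 61.1% in the other 26. Reads at several places made up 12.5, 13.3 and 11.2% of the reads of those females and 12.3% of that male library, against 8.64 to 11.3% in the other 26 libraries, so that female replicate 6 lay inside that range.

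The sequences themselves show where reads can be lost to copies. The middle 50 bases of the coding sequence are shown for 3 members with few unique 50-base windows and 2 with many, each with an annotated copy where one lines up, and capitals mark the bases in which the copy differs. They were taken from GENCODE M21 transcripts of GRCm38.
Rps27: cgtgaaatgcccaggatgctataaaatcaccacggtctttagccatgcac
Gm17241: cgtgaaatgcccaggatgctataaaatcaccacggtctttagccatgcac
Rpl10: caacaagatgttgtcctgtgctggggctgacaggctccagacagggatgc
Rpl10-ps3: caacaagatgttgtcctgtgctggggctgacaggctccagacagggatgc
Rps12: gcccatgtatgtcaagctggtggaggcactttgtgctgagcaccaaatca
Rps12-ps3: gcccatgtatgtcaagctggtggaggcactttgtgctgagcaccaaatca
Rps3: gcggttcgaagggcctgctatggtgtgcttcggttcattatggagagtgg
Gm8130: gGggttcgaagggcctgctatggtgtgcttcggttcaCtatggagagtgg
Rpl8: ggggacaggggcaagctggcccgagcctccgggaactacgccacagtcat
The Rps27 stretch (gene on the minus strand of chromosome 3, 90212522 to 90213651) stands unchanged at 2 other annotated loci, the Rpl10 stretch (plus strand of chromosome X, 74270812 to 74273135) at 6 and the Rps12 stretch (minus strand of chromosome 10, 23785183 to 23787275) at 8. In contrast, the Rps3 stretch (minus strand of chromosome 7, 99477896 to 99483738) differs from its copy at 2 bases. No annotated locus shares the stretch of Rpl8 (plus strand of chromosome 15, 76904078 to 76906314). A 50-base read from the middle of Rps27, Rpl10 or Rps12 could not be given to 1 annotated gene from its letters alone, while one from Rps3 or Rpl8 could. Most libraries were paired-end, and single windows of 50 bases leave out the second read of a fragment. Of transcript windows of 100 bases, 1.63, 8.43 and 11.1% were unique in Rps27, Rpl10 and Rps12. At 50 bases these shares were 1.35, 7.87 and 9.89%. In Rps18 the share was 13.3% at 50 and 42.7% at 100 bases. Only annotated transcripts were compared, so copies that are not annotated were not checked.

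Across the family, 1220 annotated copies were found, of which 1151 share at least 1 window of 50 bases with their member and 983 have a row in the count tables. Copies per member ran from 0 to 122, the latter for Rpl7a. Among the 76 protein-coding members other than the divergent paralogs, 30 had no coding window of 50 bases that was unique. Their median level was 1.66 CPM per kb of exon. A further 27 with under 20% of coding windows unique had a median of 4.21, the 8 with 20 to under 50% had 13.8, and the 11 with 50% or more had 35.4 CPM per kb of exon. Spearman's rho between the level per kb and the unique share of coding windows was 0.75 over these 76 genes. With the unique share of all windows of the transcript it was 0.54. Over all 82 protein-coding members, paralogs included, the 2 values were 0.57 and 0.41. The genes share the same libraries, so these values are a description. Rpl38 and Rpl41, which encode very small proteins, stood outside this order with no unique coding window and 45.1 and 43.5 CPM per kb of exon. Counted levels were therefore not compared between members as amounts of mRNA.

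**Figure D1:**
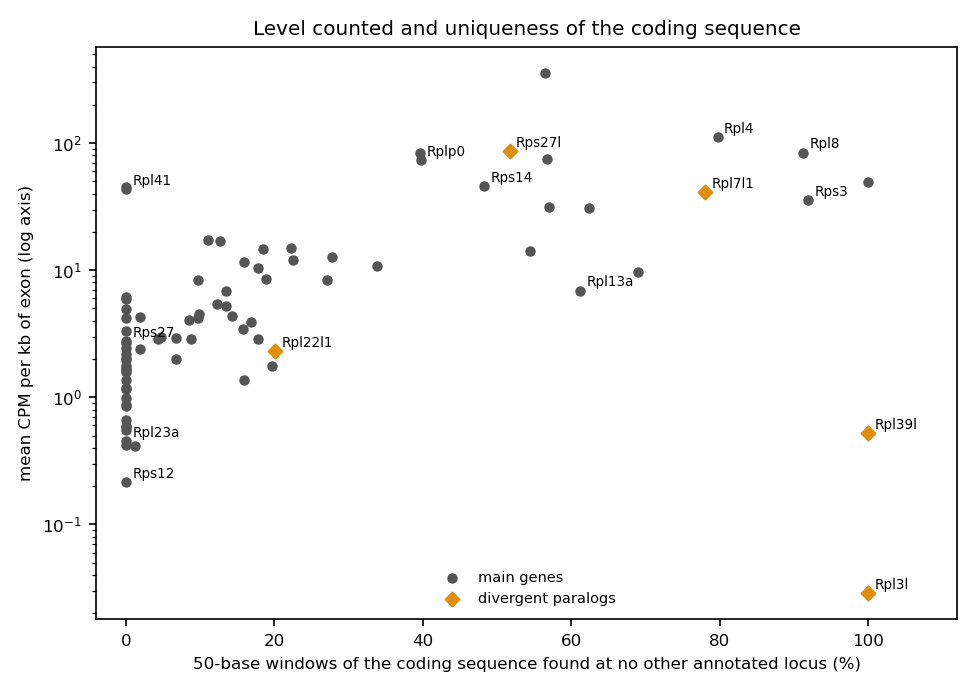
Mean CPM per kb of exon over the 30 libraries (vertical, log axis) against the percentage of 50-base windows of the coding sequence found at no other annotated locus (horizontal), with 1 point per protein-coding member and diamonds for divergent paralogs; Rpl10l, at 0.00209 CPM per kb, lies off the axis. Most members without unique windows lie low, while those at 50% or more other than the paralogs lie at 6.91 CPM per kb or higher.

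Together the members held 0.148 to 0.371% of the gene counts of a library, and their copies 0.00594 to 0.0133%. The members' share averaged 0.214 ± 0.0155% in 2-month libraries (SD, n = 6) and reached 0.280 ± 0.0604% in those of 6 months and 0.264 ± 0.0517% in those of 12. It was 0.183 ± 0.0349% in 18-month libraries, the lowest mean, and 0.219 ± 0.0218% in those of 24 months. The highest values were 0.371% and 0.326% in female replicates 5 and 4 of 6 months and 0.360% in male replicate 1 of 12 months. At 6 months the females averaged 0.324 ± 0.0488% and the males 0.236 ± 0.0311% (n = 3 each), and the male range overlapped that of 2 months. At 18 months the females averaged 0.159 ± 0.00981% and the males 0.208 ± 0.0335% (n = 3 each). The male mean at 24 months was 0.208 ± 0.0153%, so the low mean of 18 months lay mainly in the females.

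**Figure D2:**
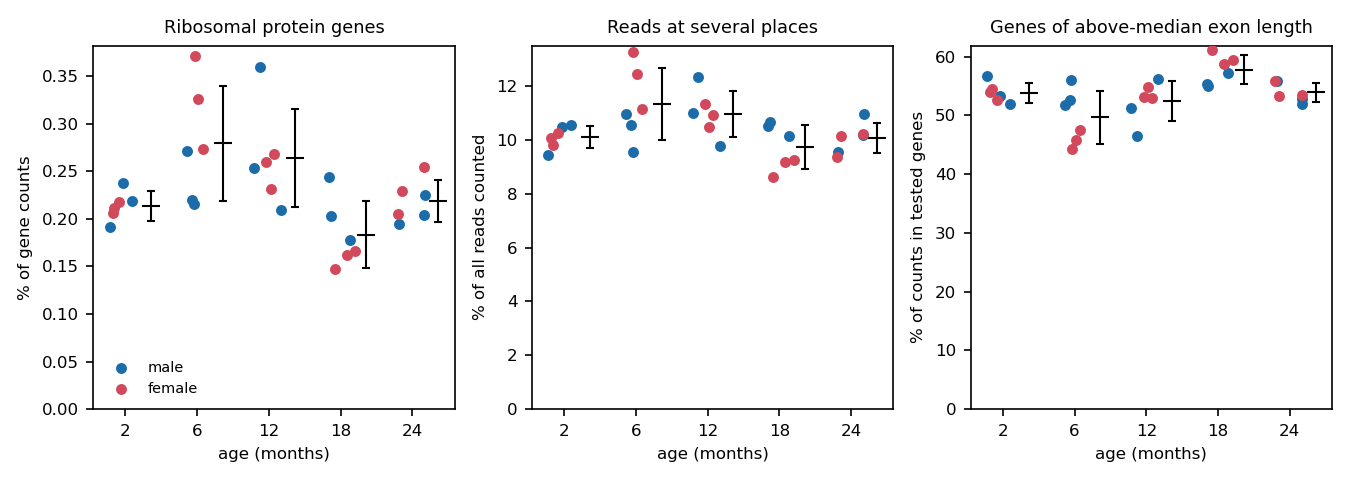
Points are libraries by age in months, blue for males and red for females, with the mean and SD of each age (n = 6) beside them. The panels plot the ribosomal protein genes' share of gene counts, the share of reads at several places and that of counts in the longer genes, all in percent; the 3 female libraries of 6 months and 1 male library of 12 months lie highest in the first panel and lowest in the last, and all of them but female replicate 6 lie highest in the second.

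Of the 84 members, 81 passed the filter on low counts, and Rpl3l, Rpl10l and Rpl6l did not. Among the highest levels were Rpl4 at 111 CPM per kb of exon, Rps4l at 88.0, Rps27l at 86.1, Rpl8 at 84.2, Rplp1 at 83.0, Rps15 at 74.2, Rplp0 at 73.9 and Rps14 at 45.7. The lowest levels among members tested were 0.216 CPM per kb for Rps12 and 0.413 for Rpsa.

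Counted levels differed between ages mainly as higher values at 6 and 12 months and lower ones at 18 months, not as a steady trend. The 18-month libraries were not tested against those of 2 months. The members' share of counts overlapped between them, at 0.148 to 0.244% and 0.191 to 0.238% in that order. In mean share the females were above the males at 6 months and below them at 18 months. With 1 library left out at a time, 1 to 37 members passed at 6 against 2 months and 12 to 42 at 18 against 12 months. Both counts also moved with covariates, as given below. Among the 81 members, 41 differed between the 5 ages (50.6%), where 29.3% of all 16844 genes tested did so. The departure from a straight line passed for 35 members (43.2%) against 17.7% of all genes. A slope on age passed for 3 members, all falling, with 5.22% of all genes falling and 5.72% rising. All 26 members with a mean of at least 20 CPM passed the joint test of age, and 15 of the 55 below that level did. No share over all genes of either level was computed, so these counts are not set against other genes of like level.

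**Figure D3:**
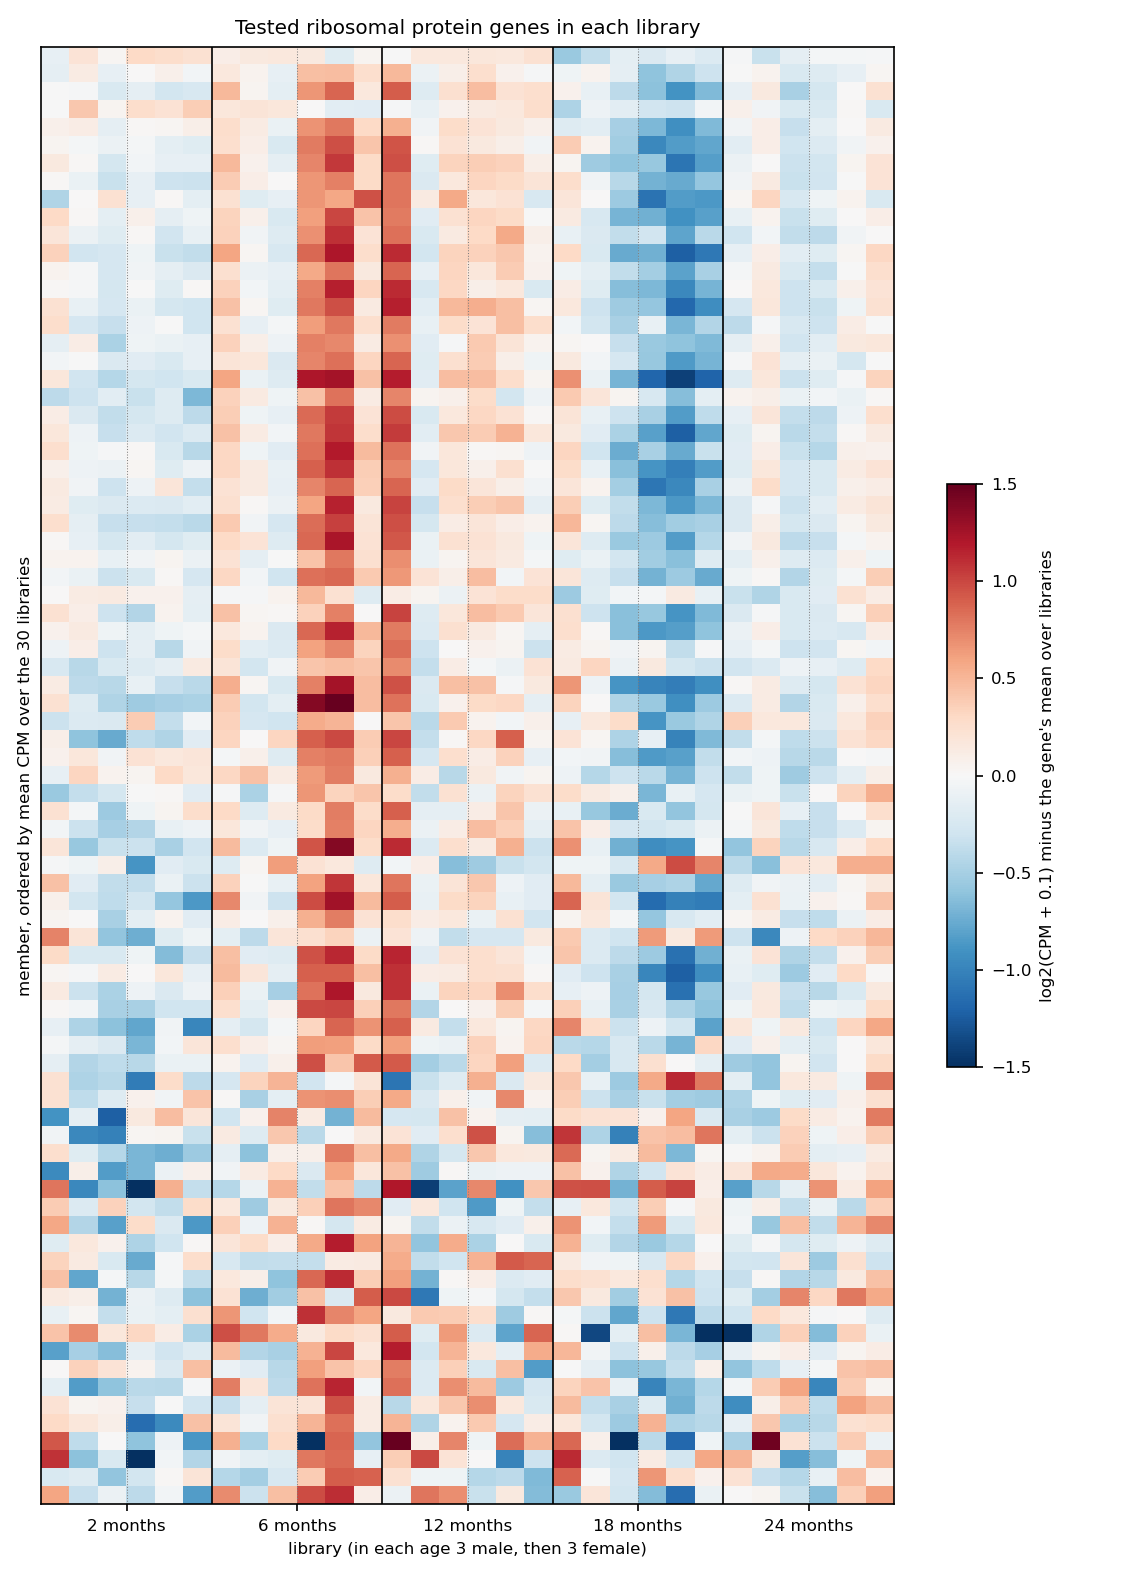
Each row is 1 of the 81 tested members, ordered by mean CPM, and each column is 1 of the 30 libraries, with 3 male and then 3 female libraries in each age. Colour gives log2(CPM + 0.1) minus the gene's own mean, and values beyond 1.5 in either direction share the end colours; female libraries of 6 months and male replicate 1 of 12 months are high over most rows, and female libraries of 18 months are low.

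At 6 months 9 members were higher than at 2 months and none was lower. Among them were Rps24, Rpl39, Rpl35a, Rpl37, Rpl26, Rpl22 and Rpl14, with log2 changes from 0.66 to 1.02. That is 11.1% of the members, where 4.07% of all genes tested rose and 4.69% fell. The members' median was 0.49 log2 against -0.02 for all genes, and 77 of the 81 values were positive. Negative values included those of Rpl7l1, Rpl12 and Rps29, named after their values were seen. Only Rpl22, which also binds RNA outside the ribosome, had all 6 libraries of 6 months above all of 2 months, and 1.47% of all genes tested did so. Its level was 17.2 CPM at the lowest, 21.99 at the median and 24.6 at the highest at 2 months, and 26.2, 32.7 and 48.4 CPM at 6 months, a rise of 0.67 ± 0.16 log2 (SE, adjusted p = 0.00874).

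The count at 6 months rested on few libraries. With 1 library left out at a time, the rise of Rpl22 passed in all 30 fits, that of Rpl35a failed without female replicate 5 of 6 months, that of Rps24 failed in 3 fits, those of Rpl37, Rpl26 and Rpl39 in 6, 7 and 7, and that of Rpl14 in 15, all with a positive value. It was 1 without female replicate 5 of 6 months, 2 without female replicate 4 and 37 without male replicate 3, and 0 without the 3 females of 6 months and male replicate 1 of 12 months together. With the share of longer genes, or the share of reads at several places, as a covariate it was 0, with members' medians of 0.10 log2 in each. Reads at several places can include those that members share with copies. That covariate may therefore hold part of the members' own signal, here and in the later fits with it. Erythroid markers were higher at 6 months as well, with summed levels of 663 to 2344 CPM against 356 to 868 CPM at 2 months and 4 of 5 genes past the test. Choroid plexus and ependyma markers had a median of -1.28 log2 with 2 of 7 lower, microglial markers -0.95 with 1 of 8 lower, smooth muscle markers -0.74 with 1 of 7 lower, astrocyte markers -0.40 with 1 of 8 lower and pericyte markers -0.20 with 2 of 10 lower. Among endothelial markers 2 of 10 were lower and 1 was higher (median -0.03), and 1 of 8 neuronal markers was higher (median -0.26). The part of these shares and markers in the rise was not tested beyond those fits, and in bulk samples fewer cells of a type and less RNA per cell cannot be told apart.

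No member differed between 12 and 6 months in edgeR, and 3 had an unadjusted p under 0.05; DESeq2 called none. Across all genes tested, 0.677% rose and 1.21% fell in that step.

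At 18 months 31 members were lower than at 12 months and none was higher. This is 38.3% of the members, against 6.73% of all genes that fell and 6.48% that rose. The members' median was -0.51 log2 and that of all genes 0.04. The 14 members with a positive value all had no unique coding window, and 2 of the 30 members of that class fell, against 11 of 27, 7 of 8 and 8 of 11 in the classes of rising uniqueness. The median level also rose over these classes, at 2.66, 9.43, 32.9 and 79.6 CPM, and its part in the calls was not tested. All 18-month libraries lay below all 12-month libraries for 3 members, Rplp0 and Rps7 among them, which is 3.7%, where 1.91% of all genes did so. Against 6 months the same held for Rpl27, Rplp0 and Rps7, where it did for 2.85% of all genes. Of the 26 members with at least 20 CPM, 23 fell, and no share over all genes of that level was computed.

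The count of falls was 12 without male replicate 1 of 12 months, 15 and 17 without female replicates 5 and 4 of 18 months, and 27 without the 3 females of 6 months and male replicate 1 of 12 months. With the share of longer genes as a covariate it was 2, with reads at several places 9 and with reads outside genes 0. Reads outside genes made up 10.4 ± 2.13% at 18 months and 6.03 ± 0.676% at 12 months (SD, n = 6), and the longer genes' share 57.8 ± 2.41% and 52.5 ± 3.37%. Erythroid markers summed to 165 to 926 CPM at 18 months and 680 to 1045 CPM at 12 months, with 3 of 5 genes lower. Choroid plexus and ependyma markers had 2 of 7 genes lower, with sums of 164.5 to 1463 CPM and 787 to 7030 CPM. Neutrophil markers had 2 of 3 tested genes higher, with sums of 1.598 to 28.6 CPM at 18 months and 0 to 1.74 CPM at 12 months. Of pericyte, smooth muscle and endothelial markers 1 each was higher, and 1 endothelial marker was lower. The part of these in the fall was not tested beyond those fits.

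From 18 to 24 months no member passed in edgeR, where 12 had an unadjusted p under 0.05, and the members' median was 0.24 log2 against 0.02 for all genes; 0.511% of all genes rose and 0.748% fell. Levels at 24 months differed little from those at 2 months, with a median of 0.08 log2. No member had all 24-month libraries below all 2-month ones, as 2.76% of all genes did. Rpl7l1 alone was lower, where 3.48% of all genes fell and 4.86% rose.

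**Figure D4:**
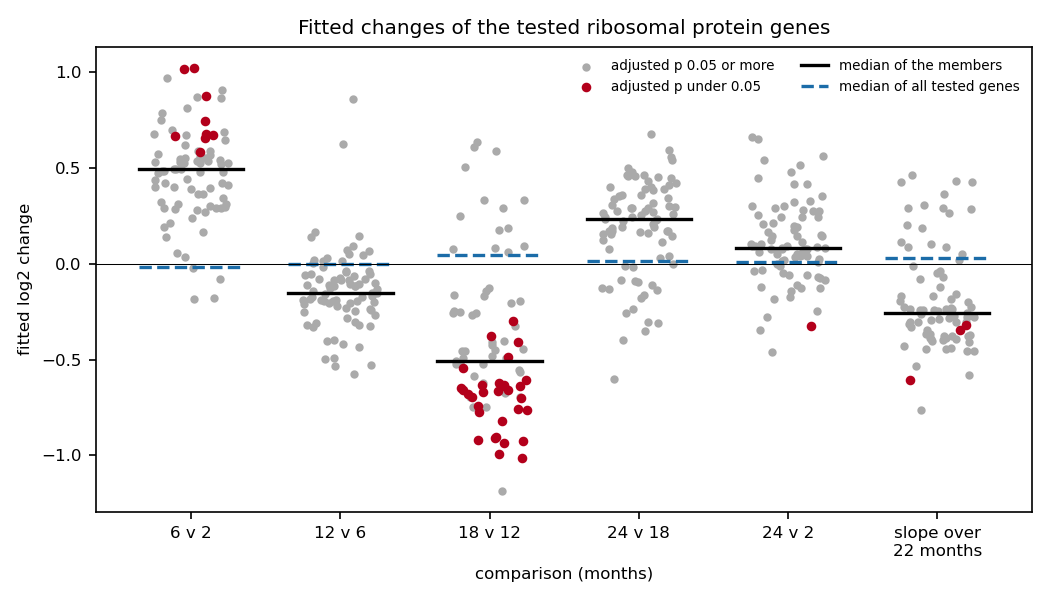
Points are the 81 tested members and the vertical axis is the fitted log2 change in each comparison or over the 22 months of the slope, red where the adjusted p was under 0.05. Black lines are the members' medians and dashed blue lines those of all 16844 genes; the members' medians were 0.49 for 6 against 2 months and -0.51 for 18 against 12 months, while those of all genes stayed near 0.

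The stalk proteins Rplp0, Rplp1 and Rplp2, which recruit the elongation factors to the large subunit, all differed between ages and all fell at 18 months. They are among the 26 members of at least 20 CPM, of which all differed and 23 fell, so this is not particular to the stalk. Of all genes tested 29.3% differed between ages and 6.73% fell at 18 months. The counts of this and the next groups, and of the paralogs, stand beside those shares. Rplp0 (plus strand of chromosome 5, 115559467 to 115563727) ranged from 108 CPM through a median of 123 to 128 CPM at 2 months, 111 to 205 CPM (median 145) at 6 months and 114 to 172 CPM (median 134) at 12 months. At 18 months it ranged from 62.9 to 106 CPM (median 79.6) and at 24 months from 93.5 to 130 CPM (median 117). The 18-month libraries lay below every library of 2, 6 and 12 months. The fall from 12 months was 0.70 ± 0.13 on the log2 scale (fitted change -0.70, adjusted p = 0.00136), and its adjusted p on the joint test was 3.78e-04. Rplp1 changed by -0.74 ± 0.22 and Rplp2 by -0.66 ± 0.21 log2 (adjusted p = 0.0215 and 0.0332), and in both the ranges of 12 and 18 months overlapped. Rplp1 was at -0.49 log2 and did not pass without male replicate 1 of 12 months, nor did it without replicate 4 or 5 of 18 months. Rplp2 did not pass in 7 of the 30 fits with 1 library left out, without replicate 1, 3 or 5 of 12 months or any of replicates 3 to 6 of 18 months.

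Proteins along the small subunit's mRNA channel gave a similar picture, with 5 of 6 differing between ages and 4 of 6 lower at 18 than at 12 months. Rps3, at the entry of the channel and also a DNA repair factor, stood at 138 ± 11.2 CPM in the 2-month group (SD, n = 6) and 200.1 ± 54.8 and 195 ± 51.3 CPM in those of 6 and 12 months. The 18-month mean was 116 ± 29.3 CPM and that of 24 months 146 ± 26.4 CPM. Its fall at 18 months was -0.76 ± 0.18 log2 (adjusted p = 0.00551), although the lowest library of 12 months, at 133 CPM, lay below the highest of 18 months, at 159 CPM. Rps14, whose loss in human marrow is linked to the anaemia of the 5q- syndrome, went from 133 ± 37.9 to 70.6 ± 19.9 CPM between 12 and 18 months (-0.92 ± 0.19 log2, adjusted p = 0.00201). Rps28, without a unique coding window, was the exception, with a value of 0.64 ± 0.23 log2 at 18 months that did not pass (adjusted p = 0.063).

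At the peptidyl transferase region, Rpl8 was at 148 ± 45.2 CPM at 6 months and 85.5 ± 34.9 CPM at 18 months, and it fell from 12 to 18 months (-0.63 ± 0.20 log2, adjusted p = 0.0355). That call was lost in 6 of the 30 fits with 1 library left out, without replicate 1 or 3 of 12 months or any of replicates 3 to 6 of 18 months. Rpl3 and Rpl10, with 4.31 and 0% of coding windows unique, did not pass the joint test (adjusted p = 0.071 and 0.777). Among 8 proteins of the exit tunnel and its rim, Rpl26 and Rpl39 rose at 6 months and Rpl4 and Rpl35 fell at 18 months. Rpl4, which reaches into the tunnel, ranged from 207 to 309 CPM (median 233) at 12 months and from 146 to 228 CPM (median 190) at 18 months. These ranges overlap, and its change was -0.38 ± 0.11 log2 (adjusted p = 0.0231). The call of Rpl4 was lost without replicate 1 or 4 of 12 months or replicate 4 or 5 of 18 months, and that of Rpl35 without replicate 1 of 12 or replicate 5 of 18 months. Those of Rpl26 and Rpl39 at 6 months were lost without any of replicates 3 to 6 of 2 months or 4 to 6 of 6 months. Rpl23a lay close to the detection limit, with 3 to 27 counts per library, and Rpl35 shares 66.2% of its exon bases with other genes, whose reads cannot be told apart with certainty as the kit keeps no strand.

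The 5S RNA particle proteins Rpl5 and Rpl11, which can also bind Mdm2 and so reach p53, had neither a unique coding window nor a call. Their counts were 42 to 260 and 31 to 148 per library, and their values at 18 against 12 months were 0.59 ± 0.28 and 0.33 ± 0.30 log2 (adjusted p = 0.176 and 0.509). Rps6, the classic substrate of S6 kinase downstream of mTORC1, had means of 2.02 ± 0.681 CPM in the youngest and 3.201 ± 0.516 CPM in the oldest libraries, and the value of 0.66 ± 0.25 log2 missed the threshold (adjusted p = 0.105). Rps27a, made as a fusion with ubiquitin, had means of 3.06 ± 0.367 CPM in 2-month and 5.03 ± 1.73 CPM in 6-month libraries (0.68 ± 0.25 log2, adjusted p = 0.0809).

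Other members with small p-values on the joint test were Rps19, Rps7, Rps9, Rpl14, Rpl34 and Rpl27. Rps19, mutated in human Diamond-Blackfan anaemia, changed by -0.99 ± 0.22 log2 from 12 to 18 months (adjusted p = 0.00324), from 52.4 ± 17.8 to 26.5 ± 8.92 CPM. Rps7 ranged from 5.78 to 12.3 CPM at 12 months and from 2.38 to 5.05 CPM at 18 months without overlap (-1.01 ± 0.22 log2, adjusted p = 0.00329). Rps9, Rpl14 and Rpl34 changed by -0.76 ± 0.18, -0.93 ± 0.21 and -0.66 ± 0.16 log2 in that step. Rps18, 1 of the 5 members with the fewest unique windows, still held 203 to 747 counts per library and fell by 0.82 on the log2 scale at 18 months (SE 0.19, adjusted p = 0.00622). Rpl9 and Rps12, also among those 5, had adjusted p = 0.534 and 0.921 on the joint test.

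Rpl7l1 and Rpl27 were among the members with a slope on age, which is given over the 22 months sampled. Rpl7l1 (minus strand of chromosome 17, 46773907 to 46782672) ranged from 141 to 188 CPM at 2 months (median 168) and from 121 to 150.4 CPM at 24 months (median 130), with overlap. It had a slope of -0.35 ± 0.09 log2 (adjusted p = 0.0115), a change of -0.32 ± 0.09 log2 at 24 against 2 months (adjusted p = 0.0284) and -0.18 ± 0.09 log2 at 6 months (adjusted p = 0.237). Rpl27 had means of 10.04 ± 1.18 CPM in the youngest and 7.92 ± 1.25 CPM in the oldest libraries, with a slope of -0.61 ± 0.16 log2 (adjusted p = 0.0119).

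These slopes passed with each of the 30 libraries left out, while the difference of Rpl7l1 at 24 against 2 months did not pass in 7 of those fits, without replicate 2, 4, 5 or 6 of 2 months or replicate 3, 4 or 6 of 24 months. They did not pass with reads outside genes as a covariate, at -0.17 and -0.38 log2, or without the 18-month libraries, at -0.28 and -0.50 log2, in the order Rpl7l1 and Rpl27. Rpl7l1 also had a pattern over libraries unlike that of most well-counted members. Among the 26 members of at least 20 CPM, the median Spearman's rho with the other 25 over the 30 libraries was 0.14 for Rpl7l1, 0.58 for Rpl22 and 0.69 for Rps4l, and for most others between 0.79 and 0.91. These values share library make-up and are a description.

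**Figure D5:**
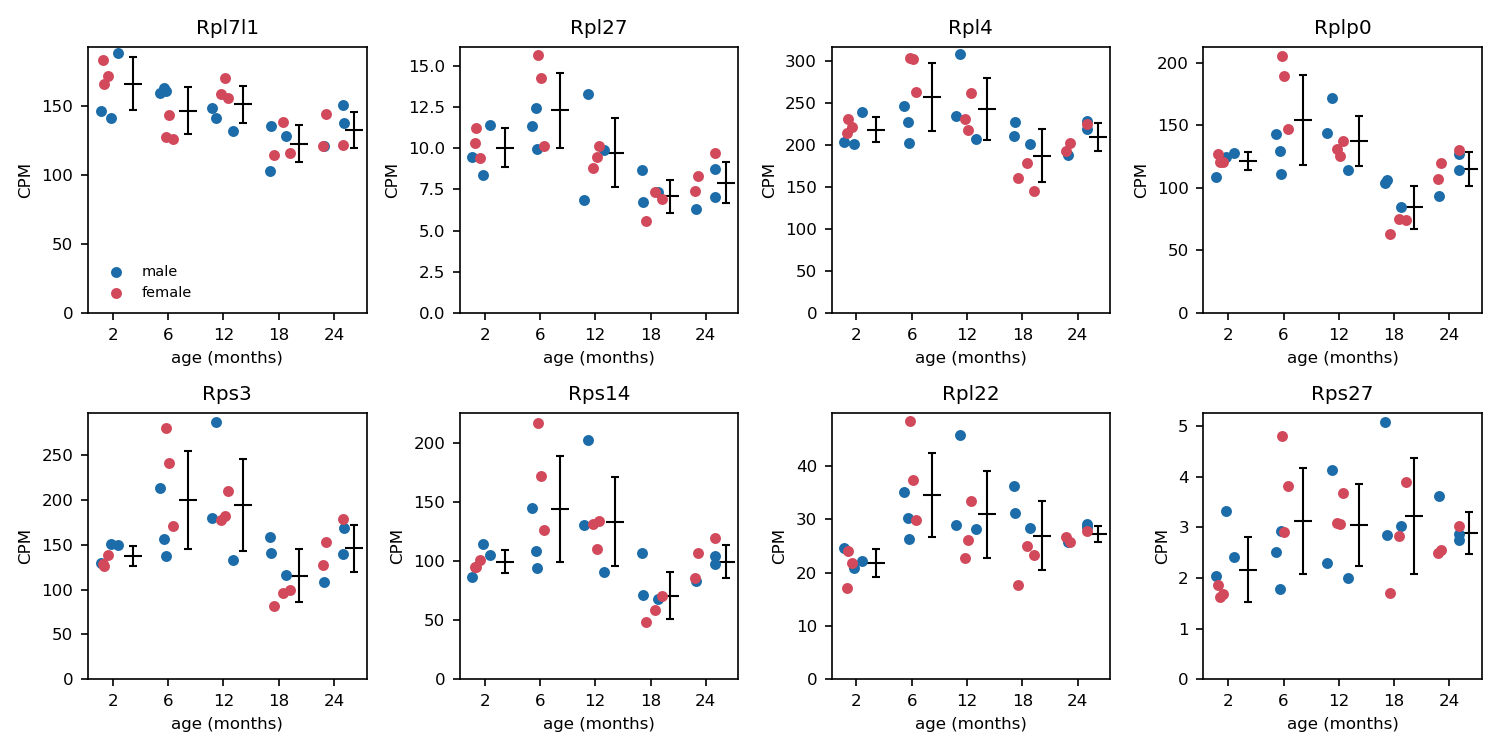
CPM of 8 members in each library by age in months, blue for males and red for females, with the mean and SD of each age (n = 6); each panel has its own axis from 0. Rpl7l1 shows no rise at 6 months, Rpl27, Rpl4, Rplp0, Rps3 and Rps14 have their highest means at 6 months and their lowest at 18 months, Rpl22 has its lowest mean at 2 months, and Rps27 stays between means of 2.16 and 3.23 CPM.

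Divergent paralogs can be told from their partners by sequence. Over the first 50 coding bases Rps27 and Rps27l differ at 16, shown in capitals, although the proteins are close relatives.
Rps27: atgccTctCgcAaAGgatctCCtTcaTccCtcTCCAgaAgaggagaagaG
Rps27l: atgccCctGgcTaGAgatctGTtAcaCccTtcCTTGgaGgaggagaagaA
Rps27l, a p53 target, was at 86.1 CPM per kb and Rps27 at 2.77, and Rps27l had the higher CPM in all 30 libraries. Their unique shares of windows are 77.6 and 1.35%, so this difference in counted level does not compare their mRNA. Rpl7l1, which is linked to ribosome assembly, was at 41.1 CPM per kb and Rpl7 at 11.9. Rps4l, annotated as a pseudogene on chromosome 6, was at 88.0 and the X-linked Rps4x at 4.54 CPM per kb, with 82.0 and 27.8% of windows unique. Rpl22 was at 9.72 and Rpl22l1, its regulated relative, at 2.31 CPM per kb. Rpl39l, known from testis, averaged 0.438 ± 0.317 CPM (SD, n = 30), with 0 counts in 1 library. The muscle paralog Rpl3l and the testis paralog Rpl10l, at 100 and 92.4% unique windows, had 0 counts in 23 and 28 of the 30 libraries.

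Of the 5 tested paralogs, Rps27l, Rpl7l1 and Rps4l differed between ages and fell at 18 months, by -0.66 ± 0.17, -0.30 ± 0.09 and -0.77 ± 0.20 log2. Without male replicate 1 of 12 months Rps27l and Rps4l did not pass, and Rpl7l1 did not without replicate 4, 5 or 6 of 12 or replicate 1, 4 or 5 of 18 months. Among the 7 partners, Rpl7, Rpl22 and Rpl39 differed between ages. Rpl22 and Rpl39 rose at 6 months, and Rpl7 changed by -0.55 ± 0.16 log2 at 18 months (adjusted p = 0.0223). The call of Rpl7 was lost without replicate 1 of 12 or replicate 4, 5 or 6 of 18 months, and that of Rpl39 in 7 fits. Rpl22l1 had means of 3.12 ± 0.815 CPM in 2-month and 5.39 ± 1.80 CPM in 6-month libraries, and the value of 0.79 ± 0.27 log2 missed the threshold (adjusted p = 0.0641).

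No member differed between males and females over all ages in edgeR, and 1 had an unadjusted p under 0.05; 0.0416% of all genes were higher and 0.0594% lower in males, and DESeq2 called no member either. Sex by age passed for 9 members (11.1%), against 6.26% of all genes, among them Rpl8, Rps4l, Rpl32, Rpl39, Rps26, Rps24, Rplp2 and Rplp0. In each of these the females were above the males in mean level at 6 months and below them at 18 months. Rpl8 was at 183 ± 34.3 CPM in females and 113 ± 18.9 CPM in males at 6 months (SD, n = 3 each), and at 60.1 ± 3.95 and 111 ± 33.1 CPM at 18 months (adjusted p = 0.0104). Rps4l was at 132 ± 18.4 and 78.1 ± 12.4 CPM at 6 months and at 41.3 ± 4.01 and 74.3 ± 18.3 CPM at 18 months (adjusted p = 0.00719). The number of members past this test was 0 with the share of longer genes as a covariate and 2 without female replicate 5 of 6 months.

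The ribosomal proteins that the symbol rule misses gave values of the same sign. Of 5 such genes, 3 differed between ages, and all had positive values at 6 months (median 0.49 log2) and negative ones at 18 months (median -0.52 log2). Rps27rt was the 1 gene of them that fell at 18 months, from 8.75 ± 1.21 CPM to 3.10 ± 0.384 CPM (-1.49 ± 0.16 log2, adjusted p = 1.2e-06). From 18 to 24 months 1 of the 5 rose, where no member did and 0.511% of all genes rose. Among 18 translation factors whose mRNAs are mostly TOP mRNAs, 11 differed between ages, 3 rose at 6 months and 6 fell at 18 months while 1 rose. Of all genes tested 29.3% differed between ages, 4.07% rose at 6 months and 6.73% fell at 18 months. The counts of the 5 genes above, of this list and of the next lists stand beside those shares. Eef1d, Eef1g, Eif3h and Eif3l, subunits of elongation factor 1 and of initiation factor 3, changed by -0.47, -0.52, -0.57 and -0.27 log2 at 18 months.

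Genes that build ribosomes and control their use were counted in the same way. Of 29 biogenesis factors tested, 6 differed between ages, a smaller share than over all genes, and 4 had a falling slope. At 6 months 1 fell and none rose. Eif6, which keeps new large subunits from joining small ones, had means of 168 ± 17.6 CPM in 12-month and 127 ± 11.9 CPM in 18-month libraries (-0.41 ± 0.10 log2, adjusted p = 0.00737). Of 19 genes of RNA polymerase I, many of which also serve other polymerases, 6 differed between ages, which is about the share over all genes, 3 rose at 6 months and 4 fell at 18 months. Of 15 host RNAs of small nucleolar RNAs, which guide the modification of ribosomal RNA and often carry a TOP start, 7 differed between ages, 6 rose at 6 months and none fell at 18 months. Gas5 had means of 35.7 ± 6.39 CPM in 2-month and 53.8 ± 10.3 CPM in 6-month libraries (0.59 ± 0.13 log2, adjusted p = 0.00762), and Snhg18 and Snhg17 rose over age. Of 21 genes of mTORC1 and TOP control 9 differed between ages, and at 18 months 3 rose and 2 fell. Of 14 genes of ribosome rescue and quality control 8 differed, and Map3k20, a sensor of collided ribosomes, rose over age (0.38 ± 0.12 log2, adjusted p = 0.0405).

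TOP starts were looked for in RefSeq promoters of GRCm38, which list 62 of the 84 members. In the 30 bases from 10 before the start onwards, a C followed by at least 4 letters that are C or T, read on the sense strand only, was present in 42 of the 62 members (67.7%) and in 39.6% of all 27025 symbols listed. Stretches of 4 members are shown because they span members with few and many unique windows, and capitals mark the first match.
Rps6: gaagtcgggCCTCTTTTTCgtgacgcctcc
Rps27: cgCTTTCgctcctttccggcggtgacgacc
Rps9: cttgtCTCTCTTTgtctcgggcctgagttc
Rps3: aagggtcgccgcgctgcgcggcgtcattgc
They lie at chr4:86857348-86857377 (minus strand), chr3:90213629-90213658 (minus), chr7:3704031-3704060 (plus) and chr7:99483690-99483719 (minus). The match marked in Rps27 lies wholly before the RefSeq start, and matches there were counted as well. A match is a description of these letters only, and its absence in the Rps3 stretch says only that these letters are not in this window.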

How the data were processed

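RNA-seq counts of 30 libraries were used. Per the labels' protocols, cDNA was made with SMART-Seq v4 and Nextera XT, without strand or molecular identifiers. By the same protocols 24 libraries were paired-end and 6 single-end reads of 50 bases, with no statement of which. This layout therefore entered no model. Whether the 6 single-end libraries line up with an age, a sex or the outlying libraries could not be told. STAR 2.5.2b, HTSeq, FastQC 0.11.4 and MultiQC appear in the submitters' processing notes, as does build GRCm38 (mm10). The authors deposited whole-number read counts per gene, not normalized; the column without strand was used, and 4 lines naming no gene were left out (8.64 to 13.3% of reads at several places, 3.82 to 13.1% outside genes, 3.61 to 4.21% over several genes, 2.51 to 6.26% unmapped).

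Genes passed filterByExpr by age (minimum count 10, total 15; 16844 genes). edgeR 4.0.16 (R 4.3.3) fitted quasi-likelihood models with TMM and sex as a covariate; p-values were adjusted over all genes by Benjamini and Hochberg, with 0.05 as threshold. DESeq2 1.42.0 was an alternative. SEs came from F statistics. Of the models, only that of the slope was tested on simulated data, made with the same spread setting for every gene. Windows of 50 bases were compared with GENCODE M21 transcripts of other loci; level per kb uses all annotated exon bases of a gene.

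Members named were the 10 highest per kb, the 10 smallest joint p-values, the slopes past the test, paralogs and partners, any sex difference past the test, and the 5 lowest and 5 highest unique shares; up to 4 genes per other list had the smallest joint p. Members and lists were chosen with earlier results of these data known, and the role groups, their examples and single members outside these rules after the values were seen. A few genes, some picked by these rules, are not reported here. Libraries are called biological replicates, with no word on the mice behind each; p-values measure the spread between libraries.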

Additional observations from a re-analysis of the deposited data

Results flagged for a closer look

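Within an age, single libraries lay far from the other 5 for 10 of 150 sets of 6 values examined, where chance alone gives about 1 in 20. Male replicate 1 of 12 months accounted for 5 of them. It held 209.4 CPM of Rpl8 (others 104.9 to 127), 85.15 of Rplp1 (33.1 to 48.6), 33.16 of Rps20 (14.1 to 19.3), 12.3 of Rps7 (5.78 to 6.80) and 1.462 of Rpl39l (0.337 to 0.719). That library had 46.6% of its counts in longer genes. Male replicate 1 of 2 months was highest of its age for 4 members, with 43.9 CPM of Rps19 (30.4 to 34.9), 20.27 of Rps20 (12.7 to 15.4), 0.9411 of Rps12 (0.0401 to 0.376) and 0.773 of Rpl39l (0.149 to 0.359). Male replicate 2 of 24 months had 1.157 CPM of Rpl39l against 0.226 to 0.498.

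The ages differed in another way between the sexes for 9 members by the joint test of sex with age, among them with adjusted p = 0.00719 for Rps4l, 0.0104 for Rpl8, 0.0214 for Rpl32, 0.0221 for Rpl39, 0.0292 for Rps26, 0.0314 for Rps24, 0.0353 for Rplp2 and 0.0365 for Rplp0. The female libraries of 6 months also had the lowest shares of longer genes of their age.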

How the results depend on the processing

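Counts below are members past the test. Against 41 for any age difference and 35 for the departure from a line, there were 1 and 3 with reads outside genes as a covariate, 5 and 3 with the share of longer genes, 11 and 8 with reads at several places, 13 and 11 without the 18-month libraries, 14 and 10 without the females of 6 months and male replicate 1 of 12 months, and 3 departures without the 2-month libraries. The covariate of reads at several places and the exclusion of these 4 libraries were chosen after seeing the data. The 3 falling slopes became 0 with reads outside genes, 0 without 18 months and 5 without 2 months; 1 rose once copies were added. At 6 against 2 months the 9 became 22 with DESeq2, 17 with reads outside genes, 0 with longer genes, 0 with reads at several places, 0 without those 4 libraries, and 21, 15 and 4 without the 12-, 18- and 24-month libraries. At 18 against 12 months the 31 became 0, 2 and 9 with reads outside genes, longer genes and reads at several places. At 24 against 18 months the 0 became 7 with reads at several places, 1 without 6 months and 2 without those 4 libraries. At 24 against 2 months the 1 became 0 with no filter or reads outside genes, 3 with DESeq2, and 2 with DESeq2 size factors, longer genes, reads at several places, copies added, without 6 or 18 months, or without those 4 libraries. Sex by age, 9, became 20 with DESeq2, 4 with reads outside genes, 0 with longer genes, reads at several places or without 6 months, 24 without 12 months and 1 without 18 months. The cause was not tested.

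Leaving out 1 library at a time gave 33 to 47 calls for any age difference, 24 to 43 for the departure, 3 to 4 falling and 0 to 0 rising slopes, 1 to 37 for 6 against 2 months, 12 to 42 for 18 against 12, 0 to 2 both for 24 against 18 and for 24 against 2, 2 to 21 for sex by age, and 0 for 12 against 6 months and sex. The 6-month count was 14, 4, 3, 3 and 3 without 2-month replicates 1, 3, 4, 5 and 6, 26, 37, 2, 1 and 5 without 6-month replicates 2 to 6, 27 and 14 without 12-month replicates 1 and 6, and 18 without 18-month replicate 1. Sex by age was 2, 2, 4 and 2 without 6-month replicates 2 to 5, 18 and 21 without 12-month replicates 1 and 2, and 2, 4, 15, 4 and 3 without 18-month replicates 1 to 5. The 24-against-2-month count was 0 without 2-month replicates 2, 4, 5 or 6 or 24-month replicates 3, 4 or 6. In 24 against 18 months it was 2 and 1 without 18-month replicates 1 and 2.

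Of 27 calls of named members, 23 were lost with reads outside genes, 21 with longer genes and 14 with reads at several places, and 0 with DESeq2, another scaling or copies added; none changed sign. The members' share of counts with reads at several places in the denominator was 0.189% at 2 months and 0.242% at 6 months. Sex by age could not be fitted without the females of 6 months. No paired analysis was possible because the labels carry no replicate numbers: those used here were given in accession order, and no label ties a library of 1 age to one of another. Members with few unique windows are limited by depth: Rps12 had 1 to 33 counts per library.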
